A study of Mus musculus with 9 samples.

Results

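The progenitor surface and aldehyde dehydrogenase markers are 7 genes, Cd44, Ly6a, Cd24a, Prom1, Procr, Aldh1a1 and Aldh1a3, chosen by name from the 55492 rows of the gene table and all found there. They were followed over all 9 libraries of D2.0R cells (written D2.OR in 1 label), a mouse mammary adenocarcinoma line known for staying dormant after it spreads. The cells had been loaded with the division-diluted dye CellTrace Far Red (CTFR), kept for a week in DMEM with 2% serum and sorted for dye-positive quiescent and dye-negative proliferating cells, and poly(A) RNA was sequenced. Dye-positive, dye-negative and bulk cells are the 3 kinds of sample in the labels, which tie 0 of the 9 libraries to any of them. No sorted fractions are therefore compared, no library is read as quiescent or proliferating, and libraries go by the running number in their titles. The numbers are set out in blocks (1 to 3, 4 to 6, 7 to 9) and by position in the block, which are places in a numbering and not known groups, so no mean, SD or test between them is given.

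These genes are the usual handles for stem and progenitor cells in breast tissue. CD44 is the main receptor for hyaluronan, and CD24 is a small, heavily glycosylated protein held in the membrane by a lipid anchor. Cells high in CD44 and low in CD24 were the first described population of tumour-initiating cells in human breast cancer. Ly6a encodes Sca-1, a lipid-anchored Ly6 protein used to sort mouse stem and progenitor cells and, in the mouse mammary gland, a luminal subset. Prom1 encodes prominin-1 (CD133) of membrane protrusions, and Procr the endothelial protein C receptor, which marks multipotent stem cells in the mouse mammary gland. ALDH1A1 and ALDH1A3 oxidise retinal to retinoic acid, and their activity underlies the fluorescent aldehyde dehydrogenase assay used to sort breast cancer stem cells.

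Library 9 was the shallowest with 18732737 estimated counts and library 7 the deepest with 41243036, so 1 CPM (the unit of depth-scaled counts, here on TMM-scaled library sizes) rested on between 18.3 and 40.4 counts. Nothing in the labels says that libraries came from separate cultures, so spread between them may be technical. The intervals below are exact 95% intervals that cover counting error only. The line's identity markers were mixed. In no library did 5 of the 10 epithelial genes reach 1 CPM, among them Epcam (at most 0.219 CPM) and Krt5 (1 count in all). The keratin genes Krt8 and Krt18 ran from 146 to 662 CPM and from 38.0 to 156 CPM. Cdh1 ran from 5.46 to 13.0 CPM and Esr1 from 3.61 to 15.8 CPM, and Krt14 reached 1.31 CPM at most. Of 8 mesenchymal genes Fn1 and Vim were the most abundant, at a median of 12016 and 4658 CPM. Col1a1 ran from 1100 to 4224 CPM, Col3a1 from 394 to 2984, Snai2 from 91.8 to 152 and Twist1 from 44.2 to 122. Only Cdh2 and Zeb1 were low, at no more than 0.816 CPM and at 0.328 to 3.90 CPM. Division genes set libraries 2, 5 and 8 apart: Mki67, the Ki-67 gene, stood at 62.9 to 149 CPM in these and at 4.98 to 28.1 CPM in the other 6.

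The 7 genes covered a very wide span of levels. Per kb of annotated exon, Cd24a had a median over libraries of 64.0 CPM per kb, Ly6a 53.0 and Cd44 50.1. The libraries' ranges of these 3 length-scaled levels overlapped, at 48.5 to 83.1 for Cd24a, 35.9 to 70.1 for Ly6a and 40.7 to 72.4 for Cd44. Procr followed at a median of 8.92 CPM per kb and Aldh1a3 at 1.65. Prom1, at 0.164, and Aldh1a1, at 0.00668, came last. The exon length is the union of all annotated exons (6.78 kb for Cd44), so genes with many alternative exons are scaled down more than a single transcript would be.

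**Figure D1:**
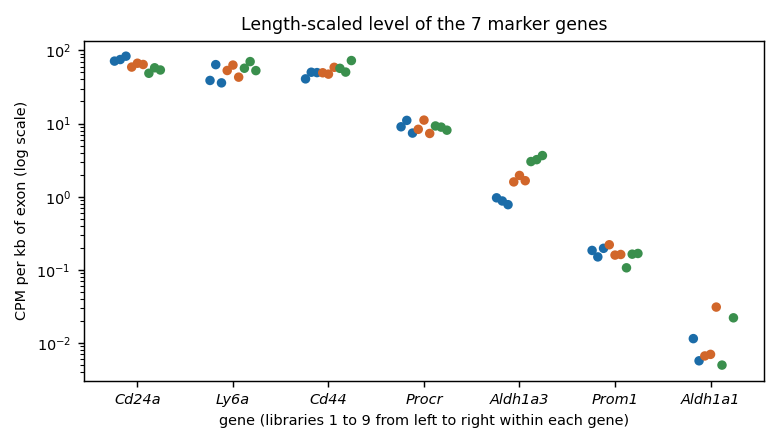
The vertical axis (log scale) gives the level in CPM per kb of exon, and each point is 1 library, drawn from library 1 to library 9 within each gene, with blue for libraries 1 to 3, orange for 4 to 6 and green for 7 to 9. Cd24a, Ly6a and Cd44 share the top of the plot, and Aldh1a1, whose 2 libraries at 0 counts cannot be drawn on a log axis, lies lowest.

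Promoter windows are shown for an abundant, a middling and the near-silent gene of this span. RefSeq windows on GRCm38.p6, from 250 bases before to 50 bases after a start site, were given for 4 of the 7 genes (Cd44, Procr, Prom1 and Aldh1a1). They are printed 5′ to 3′ on the gene's strand with every CG dinucleotide in capitals, for 2 expressed genes, Cd44 (chr2:102901616-102901915, minus strand) and Procr (chr2:155750967-155751266, plus strand), and for both start sites of Aldh1a1 (window 1, chr19:20492333-20492632, and window 2, chr19:20601718-20602017, plus strand).
Cd44: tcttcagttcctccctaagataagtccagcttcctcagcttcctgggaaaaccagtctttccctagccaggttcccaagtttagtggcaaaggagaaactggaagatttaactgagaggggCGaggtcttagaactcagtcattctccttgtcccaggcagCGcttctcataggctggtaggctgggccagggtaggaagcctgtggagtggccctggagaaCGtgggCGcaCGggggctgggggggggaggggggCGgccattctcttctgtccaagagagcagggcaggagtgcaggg
Procr: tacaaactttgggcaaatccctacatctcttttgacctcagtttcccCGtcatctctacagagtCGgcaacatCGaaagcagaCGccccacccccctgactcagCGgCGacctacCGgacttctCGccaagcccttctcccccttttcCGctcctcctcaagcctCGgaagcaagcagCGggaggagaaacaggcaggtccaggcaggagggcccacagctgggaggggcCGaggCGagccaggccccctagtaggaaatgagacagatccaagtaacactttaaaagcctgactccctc
Aldh1a1 window 1: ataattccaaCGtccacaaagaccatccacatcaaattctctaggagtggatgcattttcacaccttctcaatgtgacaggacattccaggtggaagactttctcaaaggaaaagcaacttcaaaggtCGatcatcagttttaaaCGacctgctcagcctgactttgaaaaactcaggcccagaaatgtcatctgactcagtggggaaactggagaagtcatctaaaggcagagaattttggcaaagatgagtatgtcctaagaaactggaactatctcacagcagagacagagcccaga
Aldh1a1 window 2: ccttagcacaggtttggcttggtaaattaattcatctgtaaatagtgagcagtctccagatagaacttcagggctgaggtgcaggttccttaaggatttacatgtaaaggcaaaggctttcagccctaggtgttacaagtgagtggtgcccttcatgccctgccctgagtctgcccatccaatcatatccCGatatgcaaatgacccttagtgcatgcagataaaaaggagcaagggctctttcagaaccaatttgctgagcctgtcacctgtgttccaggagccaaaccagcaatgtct
Procr had 13 CG dinucleotides in its 300 bases and Cd44 had 6, against 3 and 1 in the Aldh1a1 windows. Prom1 had 10 and 4 in its 2 windows. Over all 32851 windows the median was 7, 14.1% of windows held as few as window 2 of Aldh1a1 or fewer, and 63.7% held as many as Procr or fewer. The letters TATAAA, searched on both strands, were in none of these 6 windows and in 13.6% of all windows. These are descriptions of the sequence, and no methylation or binding is in these data.

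Most of the tested members differed by less than 2-fold between the highest and lowest library. In a chi-square test of dispersion, adjusted by Benjamini-Hochberg over 12813 genes, 5 of the 6 members tested varied beyond counting noise, as did 94.1% of all genes. Only Aldh1a3 was also called variable, which here means an adjusted p under 0.05 with at least a 2-fold difference (1 on the log2 scale) between the highest and lowest library. That is 1 of 6, where 28.0% of all tested genes were called. The median range of the 6 was 0.90 on the log2 scale, against 0.69 over all tested genes. In bulk RNA, fewer cells that carry a transcript and less of it per cell cannot be told apart.

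Aldh1a3 (ENSMUSG00000015134, chromosome 7 at 66390890 to 66427517, minus strand) had the widest range of the set. It stood at 4.46, 4.04 and 3.59 CPM in libraries 1 to 3, at 7.35, 9.01 and 7.64 CPM in libraries 4 to 6, and at 13.9, 14.8 and 16.8 CPM in libraries 7 to 9. The 3 blocks did not overlap, and each was higher than the block before it. Among all tested genes, 1.2% had blocks in this rising order without overlap, and 1.8% in the falling order. Library 9 stood 4.69-fold above library 3 (95% interval 3.80 to 5.81), and the range of 2.21 on the log2 scale had an adjusted p of 2.28e-139 in the chi-square test. Of the 8 pairs of neighbours in the order of levels, the only 2 that differed beyond counting error were those at the block edges, library 7 over library 5 (1.55-fold, 1.33 to 1.80) and library 4 over library 1 (1.65-fold, 1.32 to 2.07). Libraries of 1 block that are not neighbours in the order, such as 9 and 7 or 5 and 4, were not compared. The blocks are therefore not shown to be uniform. The position within the block, which orders Mki67, did not order Aldh1a3: library 8 (Mki67 at 149 CPM) lay between libraries 7 and 9 (28.1 and 24.1 CPM). At a given position, however, Mki67 rose from block to block as Aldh1a3 did. It had 5.64, 9.79 and 28.1 CPM in libraries 1, 4 and 7, and 62.9, 106 and 149 in libraries 2, 5 and 8. In libraries 3, 6 and 9 it had 4.98, 9.20 and 24.1 CPM. Whether the 2 genes are related was not tested.

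**Figure D2:**
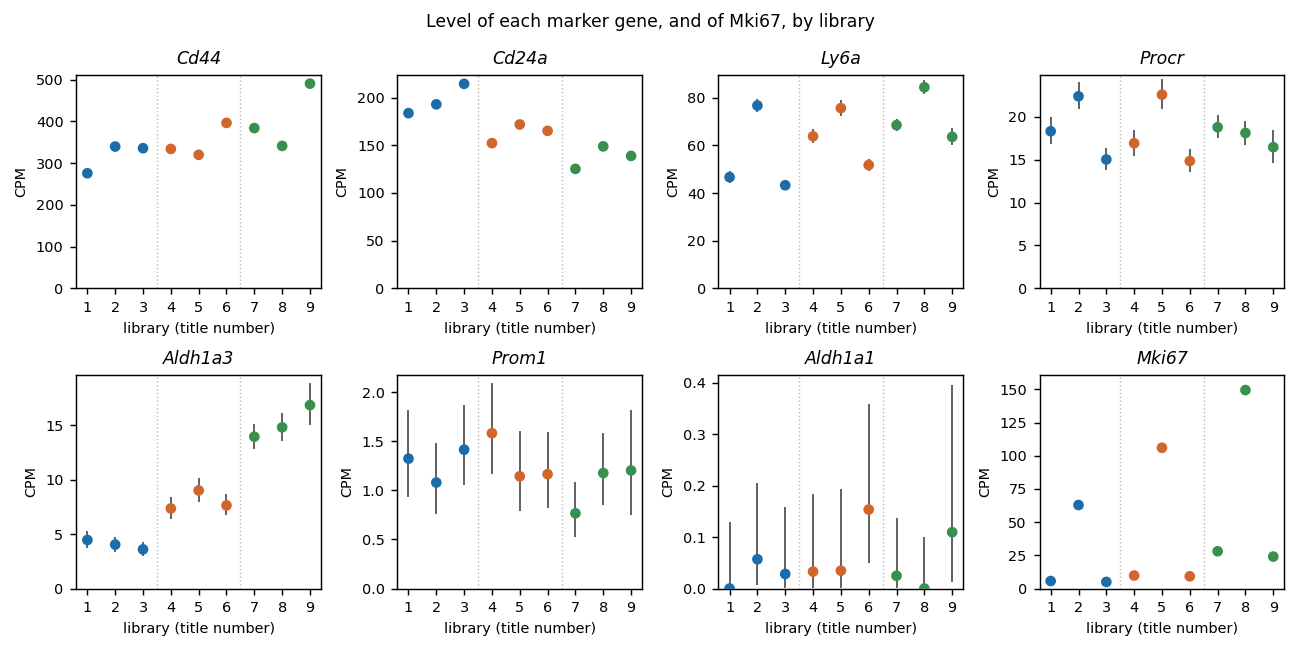
Each panel gives 1 gene's level in CPM (vertical axis, from 0) in libraries 1 to 9 (horizontal axis), with exact 95% Poisson intervals as bars, dotted lines between the blocks, and blue, orange and green for libraries 1 to 3, 4 to 6 and 7 to 9. Aldh1a3 climbs in steps from block to block, Cd24a steps down (libraries 4 and 8 within counting error), Ly6a peaks where Mki67 peaks, and Aldh1a1 stays at or under 0.153 CPM.

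The other member of the pair, Aldh1a1 (ENSMUSG00000053279, chromosome 19 at 20492715 to 20643465, plus strand), was hardly seen. It had 0, 2 and 1 counts in libraries 1 to 3, 1, 1 and 5 in libraries 4 to 6, and 1, 0 and 2 in libraries 7 to 9, 13 counts in all. The highest level was 0.153 CPM in library 6 (interval 0.0498 to 0.358). A count of 0 allows up to 0.104 CPM in library 1 and 0.0821 CPM in library 8, taking 3 counts as the floor. It did not pass the filter on low counts, and no fold is given for it. Aldh1a7, a mouse gene of closely similar sequence with which reads could be shared, had 2 counts over the 9 libraries, and Aldh1a2, the other retinal-oxidising member of the subfamily, did not exceed 0.0849 CPM. Aldh1a3 was thus the member of its subfamily with measurable transcript here.

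The nearest profiles to that of Aldh1a3, by mean absolute difference in median-centred log2 CPM over the 9 libraries among 9849 genes of at least 5 CPM on average, belonged to Arhgdib, Kcnn4 and Ston2. Arhgdib differed by 0.29 on the log2 scale on average and had 17.5, 20.0 and 17.1 CPM in libraries 1 to 3, 26.2, 24.3 and 23.96 in libraries 4 to 6, and 42.01, 37.7 and 44.4 in libraries 7 to 9. Its blocks did not overlap either. Kcnn4, a calcium-activated potassium channel gene, and Ston2, which encodes an endocytic adaptor, both differed by 0.32, and in both libraries 7 to 9 lay above the other 6 (3.28% of tested genes), with 11.8 to 12.8 CPM against 4.16 to 8.48 CPM for Kcnn4 and 6.38 to 9.35 CPM against 2.87 to 4.82 CPM for Ston2.

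**Figure D3:**
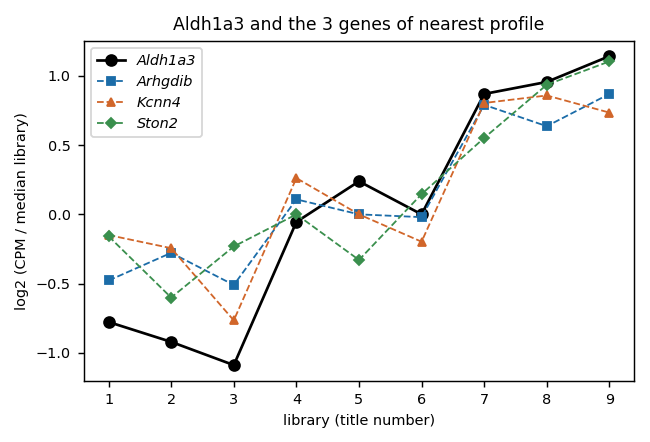
The lines give the level of Aldh1a3 (black) and of Arhgdib, Kcnn4 and Ston2 in libraries 1 to 9 as log2 of CPM over the gene's own median library. All 4 genes are highest in libraries 7 to 9.

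Of 18 further aldehyde dehydrogenase family genes 13 were tested. Of these, 12 varied beyond counting noise (94.1% of all tested genes) and 5 were variable (28.0%), with a median range of 0.77 on the log2 scale against 0.69 over all tested genes. Aldh1l2, a mitochondrial folate enzyme, was low in libraries 2, 5 and 8, at 56.0, 74.2 and 115 CPM, against 238 to 423 CPM in the other 6. Aldh18a1, which makes the proline precursor, had the same split, with 94.6, 108 and 135 CPM against 179 to 262 CPM. The other 3 variable genes went the opposite way, with libraries 2, 5 and 8 above the rest. Aldh3a1, an oxidiser of lipid-derived and aromatic aldehydes, stood there at 311 to 338 CPM against 145 to 266 CPM. Aldh3b1 stood at 51.1 to 54.8 CPM against 23.0 to 30.9 CPM, and the proline-catabolic Aldh4a1 at 16.4 to 19.6 CPM against 9.62 to 14.4 CPM. Over all tested genes 19.0% lay higher in libraries 2, 5 and 8 than in every other library and 20.1% lower. The most abundant family member, the mitochondrial acetaldehyde enzyme Aldh2, ranged only from 476 to 607 CPM.

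Of 17 listed genes that supply, degrade or sense retinoic acid, 10 were tested. All 10 varied beyond counting noise (94.1% of all tested genes) and 5 were variable (28.0%). Libraries 2, 5 and 8 lay above the other 6 in 4 of the 10 (19.0% of all tested genes), and the rising block order of Aldh1a3 was in 0 of the 10 (1.2%). Rdh10, which makes retinal from retinol, stood at 105, 102 and 87.4 CPM in libraries 2, 5 and 8, against 22.7 to 67.2 CPM in the other 6. Dhrs3, which turns retinal back into retinol, had 93.0, 91.2 and 75.6 CPM there, against 22.5 to 52.1 CPM, and Rarb, a retinoic acid receptor gene that is itself induced by retinoic acid, had 5.57, 5.23 and 5.26 CPM, against 1.66 to 3.00 CPM. For these 3 genes libraries 7 and 9 held the lowest levels. Aldh1a3 was high in both (13.9 and 16.8 CPM), but also in library 8 (14.8 CPM), where these 3 genes were high. Cyp26b1, which breaks retinoic acid down, was highest in libraries 3, 6 and 9 at 24.1 to 25.6 CPM (5.15% of tested genes), against 11.2 to 21.4 CPM elsewhere. The carrier gene Crabp2 had at most 2.89 CPM, and the uptake receptor gene Stra6 at most 1 count in a library. The receptor genes Rarg, Rxra, Rara and Rxrb stayed under a 2-fold range, with Rarg at 128 to 165 CPM.

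**Figure D4:**
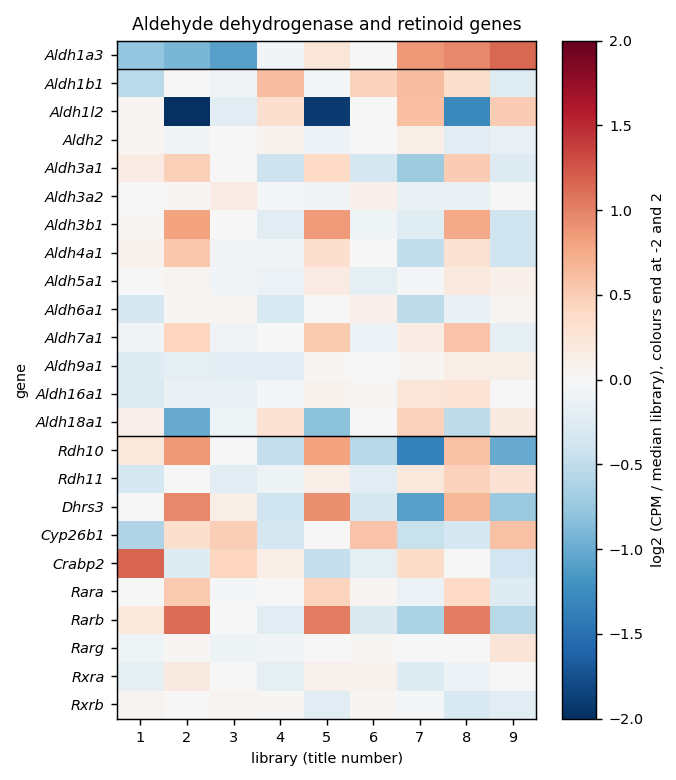
Rows are Aldh1a3 (top), 13 further aldehyde dehydrogenase genes and 10 retinoid genes that were tested, columns are libraries 1 to 9, and colour gives log2 of CPM over the gene's median library, red above and blue below it, with colours ending at -2 and 2. Aldh1a3 changes from block to block, whereas Rdh10, Dhrs3, Rarb, Aldh3b1, Aldh1l2 and Aldh18a1 stand out in libraries 2, 5 and 8.

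Cd24a (ENSMUSG00000047139, chromosome 10 at 43578284 to 43584265, plus strand) ran against Aldh1a3. It stood at 184, 193 and 214 CPM in libraries 1 to 3, at 152, 172 and 165 CPM in libraries 4 to 6, and at 125, 149 and 139 CPM in libraries 7 to 9. Libraries 1 to 3 lay above all others, as in 3.92% of tested genes. Libraries 7 to 9 lay below all others by a narrow margin (4.1% of tested genes), since library 8 and library 4 did not differ beyond counting error (1.02-fold, interval 0.983 to 1.06). With totals alone or upper-quartile factors that margin turned round (154 and 153 CPM in library 8, 148 and 149.8 CPM in library 4), while libraries 1 to 3 stayed highest. The highest library, 3, and the lowest, 7, differed 1.71-fold (1.65 to 1.77), or 0.78 on the log2 scale, with an adjusted p of 2.22e-273 in the chi-square test and under the 2-fold line. Transcripts of the listed CD24 receptors Siglecg, Siglec1 and Selp did not exceed 0.245 CPM.

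Cd44 (ENSMUSG00000005087, chromosome 2 at 102811141 to 102901665, minus strand) was the most abundant of the 7 genes in CPM. It stood at 276, 339.8 and 336 CPM in libraries 1 to 3, at 334, 320.1 and 397 CPM in libraries 4 to 6, and at 384, 341 and 491 CPM in libraries 7 to 9. The blocks overlapped, and so did the positions. Library 9 stood 1.78-fold above library 1 (1.73 to 1.83), and libraries 8, 2, 3 and 4, next to each other in the order, did not differ beyond counting error. The range of 0.83 on the log2 scale fell to 0.52 without library 9. The table sums all Cd44 isoforms, so standard and variant forms cannot be seen. Of the splicing factors known to favour the variant exons, Esrp1 had 0 counts in all 9 libraries and Esrp2 ran from 3.12 to 5.34 CPM.

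The ratio of Cd44 to Cd24a, which needs no scaling between libraries, differed more than Cd44 or Cd24a alone. It was 1.502, 1.76 and 1.57 Cd44 counts per Cd24a count in libraries 1 to 3, 2.20, 1.86 and 2.40 in libraries 4 to 6, and 3.07, 2.29 and 3.54 in libraries 7 to 9. Every ratio of libraries 1 to 3 was below every ratio of the other 6, and libraries 4 to 6 and 7 to 9 overlapped only through libraries 6 and 8. Cd24a alone already set libraries 1 to 3 apart from the other 6 (3.92% of tested genes). The split in the ratio is therefore not a separate observation, and no share over other pairs of genes was computed. In each block of the last 6 libraries, the position with the lowest ratio (5 and 8) was that with the highest Mki67, but in libraries 1 to 3 it was the highest (2). The ratio in library 9 was 2.35 times that in library 1 (95% interval 2.23 to 2.49), and without library 9 the largest such ratio was 2.04. Per kb of exon the ratio ran from 0.572 to 1.35.

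**Figure D5:**
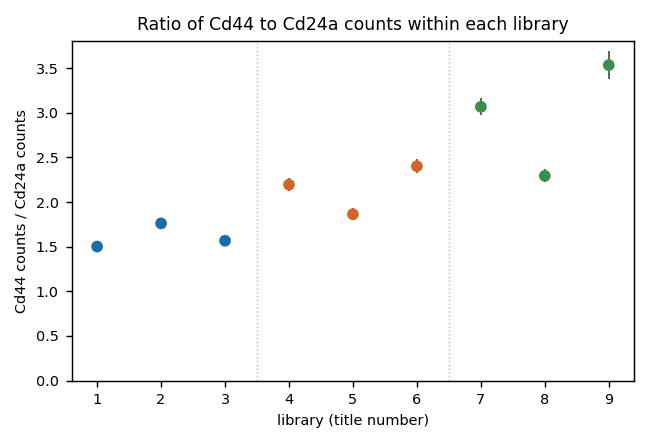
Points give Cd44 counts divided by Cd24a counts (vertical axis, from 0) in libraries 1 to 9, with exact 95% intervals as bars, dotted lines between blocks, and blue, orange and green for libraries 1 to 3, 4 to 6 and 7 to 9. The ratio is lowest in libraries 1 to 3, at 1.502 to 1.76, and highest in library 9, at 3.54.

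Of 16 listed partners of CD44, 14 were tested. All 14 varied beyond counting noise (94.1% of all tested genes) and 8 were variable (28.0% of all tested genes). Libraries 2, 5 and 8 lay above the other 6 in 5 of the 14 (19.0% of all tested genes) and below them in 2 (20.1%). Has2, the most abundant hyaluronan synthase gene, had 215, 232 and 232 CPM in libraries 2, 5 and 8, against 88.3 to 179 CPM in the other 6. Cemip, a hyaluronan depolymerase gene, had 4.35, 6.38 and 4.82 CPM there against 0.766 to 1.78 CPM. Cemip2 and the hyaluronidase gene Hyal2 lay higher in the same libraries too, at 75.6 to 77.9 against 37.5 to 51.9 CPM and at 33.6 to 39.1 against 18.7 to 27.0 CPM. Has1 and Has3 stayed under 2 CPM. Spp1, the gene of the CD44 ligand osteopontin, was the most abundant of the list, with 6709, 4905 and 3881 CPM in libraries 1, 4 and 7 against 2343 to 3137 CPM in the others (6.34% of tested genes). Msn, the gene of moesin, which links CD44 to actin, was lower in libraries 2, 5 and 8 (590.4 to 749.8 CPM) than in the others (843 to 1219.7 CPM). Adam10, a protease that sheds CD44, ranged only from 243 to 295 CPM. Mmp14, another protease of the list and more abundant, ran from 542 CPM in library 8 to 883 CPM in library 2.

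Ly6a (ENSMUSG00000075602, chromosome 15 at 74994877 to 74998031, minus strand) peaked at the middle position of each block. It had 76.8, 75.7 and 84.4 CPM in libraries 2, 5 and 8, against 46.7, 43.3, 63.8, 51.8, 68.5 and 63.6 CPM in libraries 1, 3, 4, 6, 7 and 9. These 3 libraries lay above the other 6, a pattern shared by 19.0% of tested genes and by Mki67. Within the other 6, libraries 4, 7 and 9 were higher than libraries 1, 3 and 6. Library 8 stood 1.95-fold above library 3 (1.84 to 2.08), a range of 0.96 on the log2 scale with an adjusted p of 9.09e-177 in the chi-square test, just under the 2-fold line, which it passed with totals alone (1.02) and with upper-quartile factors (1.02).

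The Ly6 family has similar copies, between which the authors' counting divides shared reads, so single values carry that uncertainty. Of 13 listed Ly6 and related genes 4 were tested, all 4 varied beyond counting noise (94.1% of all tested genes) and 2 were variable (28.0%). Ly6e, the most abundant, had 577, 589 and 599 CPM in libraries 2, 5 and 8, against 329 to 502 CPM in the other 6, a pattern of 19.0% of all tested genes. Ly6c1 instead kept the rising block order (1.2% of all tested genes). It had 3.27 to 4.80 CPM in libraries 1 to 3, 6.47 to 7.65 in libraries 4 to 6 and 8.42 to 10.3 in libraries 7 to 9. Plaur, the urokinase receptor gene, spanned 16.8 CPM (library 2) to 65.2 CPM (library 7). Ly6d, Ly6g, Ly6k and Slurp1 had 0 counts in all libraries.

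Procr (ENSMUSG00000027611, chromosome 2 at 155751117 to 155755471, plus strand) had a narrow range. It stood at 18.3, 22.4 and 15.03 CPM in libraries 1 to 3, at 16.9, 22.6 and 14.8 CPM in libraries 4 to 6, and at 18.8, 18.1 and 16.5 CPM in libraries 7 to 9. Libraries 5 and 2 were highest and did not differ from each other beyond counting error. They stood above the next, library 7 (1.19-fold for library 2, 1.08 to 1.32), the only 1 of 8 neighbouring pairs that did differ. Libraries 3, 6 and 9 were the 3 lowest (3.46% of tested genes), though library 9 and library 4 could not be told apart (1.03-fold, 0.890 to 1.19). The whole range was 1.52-fold (1.35 to 1.72), or 0.60 on the log2 scale, with an adjusted p of 4.68e-20 in the chi-square test.

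Procr and Ly6a are also endothelial genes, and endothelial markers were near 0. Of 8 listed endothelial markers 7 stayed under 1 CPM in every library, Cdh5 and Tie1 had 0 counts, and Pecam1 reached 0.485 CPM. The exception was Flt1, a VEGF receptor gene, at 79.2 to 175 CPM, which held nearly all of the list's summed level (79.5 to 175 CPM). All 8 leukocyte markers stayed under 1 CPM, with Ncr1 at 0 counts and a summed level of 0.148 to 0.871 CPM.

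The partners of the protein C receptor were unevenly present. Thbd, the gene of thrombomodulin, which activates protein C together with the receptor, reached 0.381 CPM at most, and Proc, the gene of protein C, 0.109 CPM. F2r, the thrombin receptor gene, through which activated protein C can signal, ran from 279.9 to 379 CPM. Of the 4 tested genes of this list (8 listed), all 4 varied beyond counting noise (94.1% of all tested genes) and 2 were variable (28.0%). Pros1, the gene of the cofactor protein S, had 127, 213 and 134 CPM in libraries 1 to 3, 83.5, 148 and 87.0 in libraries 4 to 6, and 47.3, 74.3 and 70.1 in libraries 7 to 9. F2rl1, another protease-activated receptor gene, ran from 12.8 CPM in library 6 to 62.5 CPM in library 8.

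Prom1 (ENSMUSG00000029086, chromosome 5 at 43993620 to 44102032, minus strand) was detected at a low level in every library. It had 1.32, 1.08 and 1.41 CPM in libraries 1 to 3, 1.58, 1.14 and 1.17 in libraries 4 to 6, and 0.767, 1.18 and 1.20 in libraries 7 to 9, from 22 to 50 counts each. No neighbouring pair differed beyond counting error, and the 9 counts did not vary by more than counting noise (adjusted p 0.14 in the chi-square test). The highest and lowest libraries, 4 and 7, differed 2.06-fold, with a wide interval (1.29 to 3.36) that does not allow for their having been picked as the extremes of 9. Without library 7 the range fell to 0.51 on the log2 scale, against 0.99 with it. An antisense gene, Gm16401, shares 424 exonic bases with Prom1 and had 0 counts. Prom2, the other prominin gene, had 0 counts in all 9 libraries.

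Most tested genes of a further list of progenitor surface markers were variable between libraries. Of 22 listed 14 were tested. All 14 varied beyond counting noise (94.1% of all tested genes) and 13 were variable (28.0%). The exception was Itgb1, the CD29 gene and the most abundant, at 1330.4 to 1577 CPM. The log2 ranges of the 14 genes had a median of 1.53, where those of all tested genes had 0.69. This list was chosen with earlier results of these data known, so its high share of variable genes may reflect that choice. Eng, a TGF-beta co-receptor gene, ran in the same direction as Cd24a and over a much wider range, with 121, 83.8 and 78.0 CPM in libraries 1 to 3, 65.4, 52.7 and 32.2 in libraries 4 to 6, and 18.7, 18.4 and 8.86 in libraries 7 to 9. Cd14 was in the same falling block order, at 5.91 to 7.24, 3.59 to 3.99 and 2.13 to 3.07 CPM. That order without overlap was in 2 of the 14, and in 1.8% of all tested genes. Cd200 tended lower in libraries 7 to 9, at 42.6 to 83.2 CPM against 79.0 to 179 CPM, with library 8 above library 6. Muc1 ran from 1.26 to 3.54 CPM and was highest in libraries 1 to 3 (3.92% of all tested genes).

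Of the 14 tested surface genes 4 lay higher in libraries 2, 5 and 8 than in the other 6, as Ly6a did, where 19.0% of all tested genes had that pattern. Itga6, the CD49f gene, had 22.1, 21.2 and 22.1 CPM there, with library 7 close by at 21.02 CPM and the other 5 at 10.1 to 17.6 CPM. Dll1, a Notch ligand gene, had 37.1, 41.6 and 40.7 CPM against 13.0 to 23.6 CPM. Mcam stood at 70.7 to 81.3 CPM against 34.6 to 54.0 CPM, and Lgr4 at 37.3 to 48.9 CPM against 21.9 to 32.4 CPM. Abcg2, the efflux pump gene of the dye-excluding side population, was instead highest in libraries 3, 6 and 9, at 183, 234 and 274 CPM against 56.0 to 107 CPM (5.15% of all tested genes had that pattern). Nt5e was highest in libraries 1, 4 and 7 at 18.5 to 22.3 CPM, against 7.28 to 15.4 CPM elsewhere (6.34% of all tested genes). Itgb3 (7.21 to 27.6 CPM) and Alcam (4.67 to 9.52 CPM) were both lowest in library 1, and Lgr6 ran from 2.48 to 6.82 CPM. Kit, Cd55 and Tspan8 had 0 counts in all libraries, and Epcam, Itga2, Thy1, Lgr5 and Ngfr stayed under 1 CPM.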

How the data were processed

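The deposited table holds the authors' RSEM expected counts for 9 libraries, rounded to whole numbers and not normalised. STAR 2.7.8a, RSEM 1.3.3, cutadapt 2.3 and GRCm38 are named in the submitters' processing notes. Neither annotation release nor strand setting is given in the sources used here.

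From these counts, edgeR 4.0.16 (R 4.3.3) gave TMM factors and log2 CPM, with a prior count of 2. The edgeR filter (10 counts at the median library size in every library, 15 in total) kept 12813 genes. A chi-square test of dispersion over the 9 libraries, with Benjamini-Hochberg adjustment, asked whether a gene varied beyond counting noise. It was tested on simulated counts that held planted folds and counting noise only. That simulation cannot show how the test behaves with further spread between libraries. No library could be assigned to a group, so no quasi-likelihood contrast was fitted. Levels have exact Poisson intervals and ratios exact conditional binomial ones, and that of a ratio of ratios is a normal approximation on the log scale. Highest and lowest libraries were picked by their values, so these intervals understate the uncertainty of a range.

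Named genes are the 7 members, Mki67, the variable and the 3 most abundant genes of 12 lists (some left out), markers near 0 and, for each variable member, the 3 nearest profiles. Members and lists were chosen with earlier results of these data known. Coordinates and exon lengths are from GENCODE release M21 on GRCm38.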

Additional observations from a re-analysis of the deposited data

How the results depend on the processing

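No paired analysis was possible because the labels put no library in a group. Over 3 other scalings, 2 other filters, a prior count of 0.5 and leaving out each library in turn, Aldh1a3 was called variable in all 15 settings, with a range of 2.02 to 2.22 on the log2 scale. Cd44, Cd24a, Procr and Prom1 were called in none. Leaving out single libraries moved the ranges to between 0.52 and 0.84 for Cd44, 0.83 and 0.98 for Ly6a, 0.62 and 0.78 for Cd24a, 0.51 and 0.99 for Prom1, and 0.59 and 0.63 for Procr. Ly6a passed 2-fold with totals alone (1.019) and upper-quartile factors (1.025), which makes 2 variable members there in place of 1. Over all genes, 6412 were variable without a filter, of 27105 tested, against 3592, and between 3268 and 3560 without single libraries. The ratio of Cd44 to Cd24a kept a range of 2.04 to 2.35 times without single libraries, the lower value being without library 9. In a check chosen after seeing the data, Aldh1a3 kept its 3 separate blocks under all 4 scalings, and Ly6a stayed highest in libraries 2, 5 and 8, as did Procr with totals alone and upper-quartile factors only. Depth limits Prom1 and Aldh1a1, for which the unfiltered test gave an adjusted p of 0.15 on 13 counts.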
